A study of Mus musculus with 9 samples.

Results

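Kit encodes the receptor tyrosine kinase that binds stem cell factor, also called kit ligand, and its signal keeps early erythroid progenitors alive and dividing. Red cell precursors carry the receptor and lose it as they mature, and in the erythroid lineage the transcription factor GATA2 is known for activating the gene and GATA1 for repressing it. Transcription of Kit was followed here together with the regions around and inside it where RNA polymerase starts. The gene is 1 of 24391 rows of a table of reads over gene bodies. Its regions are all entries on chromosome 5 of a table of transcription start regions that name Kit as the gene they overlap or as the gene they are linked to. That rule gave 47 entries of 33 peaks, out of 42114 entries of 26991 peaks in all.

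The assay was PRO-seq, which sequences the nascent RNA held by engaged RNA polymerase and keeps the strand. The peaks come from dREG, a method that finds transcription start regions from the pattern of PRO-seq reads, and they mark gene starts as well as enhancers. The authors listed 19 of the peaks whole and split the other 14 by strand into 28 entries. There were 33 intergenic entries, 17 upstream and 16 downstream of Kit. Both strands of the peak at the Kit start make 2 more, 5 peaks inside Kit add 5 sense and 5 antisense entries, and 2 entries lie inside the neighbouring gene Kdr. The peaks spanned 402 to 4702 bases, with a median of 1652, and lay between -363.8 kb and 387.8 kb of the Kit start. The authors marked 39 of the 47 entries as regulatory. Only the peak at the start is linked to Kit alone. All upstream entries are linked to Mir7025 as well as Kit. Those inside Kit, downstream of it and inside Kdr are linked to Kdr as well. Which of the linked genes an element acts on was not tested. Each entry is called an element and named by the distance of its centre from the Kit start, with a minus sign for upstream.

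G1E is a mouse erythroid progenitor line, made from embryonic stem cells, that lacks GATA1 and stays immature. G1E-ER4 is the same line expressing GATA1 joined to the estrogen receptor's hormone-binding domain, so that estradiol switches GATA1 on. Untreated G1E gave 2 libraries and G1E-ER4 without estradiol, called 0 h, gave 3. G1E-ER4 cells kept in 100 nM estradiol gave 2 libraries after 13 h and 2 after 24 h. All of them derive from G1E and so lack a working Gata1 gene of their own, while the labels name only the fusion. The 0 h against G1E comparison sets one line beside another. All groups grew with erythropoietin and with medium conditioned by cells that secrete kit ligand, so the ligand of the receptor came from outside in every sample. The labels do not say whether replicates were separate cultures, so the p-values measure the spread between these libraries only.

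The Kit promoter is printed because the peak at the start is the reference point of every distance and strand below. These are the 250 bases before the start, at chr5:75574737-75574986 on the plus strand of GRCm38.p6, from RefSeq, while all peak coordinates below are mm9. Capitals mark a CACCC box and a GC box.

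Kit promoter: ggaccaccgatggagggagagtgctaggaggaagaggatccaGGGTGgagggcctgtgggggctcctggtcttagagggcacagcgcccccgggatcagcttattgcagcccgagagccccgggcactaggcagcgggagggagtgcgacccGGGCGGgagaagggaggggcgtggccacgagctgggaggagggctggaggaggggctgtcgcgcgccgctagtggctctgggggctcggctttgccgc

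The window holds 70.8% G and C, against a median of 52.4% over the 32851 promoter windows of that length. Kit has 2 entries among these windows, and only the one printed was searched. A search of both strands found CACCC (the box that KLF factors bind) 1 time, at -208 from the start, and GGGCGG (the GC box of Sp factors) 1 time, at -98. CACCC occurs in 52% of all windows and GGGCGG in 32.7%. The GATA motifs AGATAA and TGATAA, the E-box CANNTG and the TATA box TATAAA had no match in this window, and they occur in 9.99%, 7.94%, 66.2% and 12.4% of all windows. Such matches describe letters and not bound sites.

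Libraries held 37830789 to 139945759 gene-body reads and 15394427 to 59952454 element reads. Within a group, gene-body levels (log2) correlated at 0.990 or more between libraries. Gata1 itself stood at 189 ± 34.8 CPM (read counts relative to the TMM-scaled library size, mean ± SD) in G1E (n = 2) and 215 ± 37.4 CPM at 0 h (n = 3), and reads of the disrupted gene and of the fusion construct cannot be told apart in these counts. The summed level of 10 erythroid markers ran from 906 to 1179 CPM at 0 h and from 4750 to 5554 CPM at 24 h. Of 9 mast cell markers, a cell type that keeps Kit, Mcpt8 had no reads in any group, and the sum was 112 to 158 CPM at 0 h, 57.4 to 70.4 CPM at 13 h and 33.9 to 113 CPM at 24 h. These sums hide members that went opposite ways. Srgn, a granule proteoglycan of many blood cells, averaged 17.5 ± 1.81, 57.4 ± 6.78 and 72.2 ± 55.7 CPM at 0 h, 13 h and 24 h and made up nearly all of the 24 h sum. Cpa3, a mast cell protease, averaged 53.5 ± 21.8 CPM at 0 h (n = 3), 0.171 ± 0.0269 CPM at 13 h (n = 2) and 0.0392 ± 0.0204 CPM at 24 h (n = 2). Il1rl1, the interleukin 33 receptor, averaged 52.7, 4.20 and 0.392 CPM at those times, and Ms4a2, a chain of the IgE receptor, 3.19, 0.0329 and 0 CPM. Cpa3, Il1rl1 and Ms4a2 were thus on average lower at 13 h and 24 h than at 0 h, as Kit was. The sum of 8 megakaryocyte markers was 38.7 to 54.9 CPM at 0 h, 140 to 146 CPM at 13 h and 92.7 to 150 CPM at 24 h. Among them Itgb3 averaged 16.2, 96.8 and 70.3 CPM at those times, while Itga2b averaged 26.8, 20.5 and 20.3 CPM. The sum of 7 granulocyte and monocyte markers was at most 1.29 CPM and that of 6 lymphocyte markers at most 4.55 CPM in every library. The part of mast cell genes in the results for Kit was not tested. Scaling by library totals in place of TMM moved the median change of all genes at 24 h from -0.07 to -0.45 (log2), and the split of calls from 4014 higher and 4246 lower to 2614 higher and 5863 lower.

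Kit transcription fell from 0 h to 13 h and again to 24 h. Gene-body reads were 1173 and 841 CPM in the G1E libraries and 474, 604 and 609 CPM in the 0 h libraries. They were 200 and 297 CPM at 13 h and 105 and 46.9 CPM at 24 h. The 4 groups did not overlap, with G1E highest and 24 h lowest. In share of all gene-body reads, Kit took 0.122% of the first G1E library and 0.00387% of the second 24 h library.

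**Figure D1:**
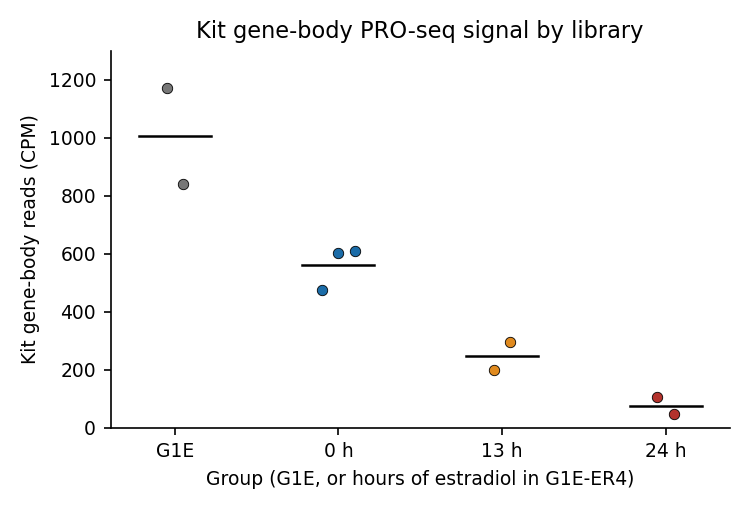
Kit gene-body reads (CPM, linear axis from 0) for each library, by group; points are libraries and bars are group means. G1E libraries sit at 841 and 1173, 0 h between 474 and 609, 13 h at 200 and 297, and 24 h at 46.9 and 105.

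From 0 h to 13 h Kit fell from 562 ± 76.6 CPM (n = 3) to 248 ± 69.2 CPM (n = 2), a log2 change of -1.18 ± 0.32 (SE, quasi-likelihood test of edgeR, adjusted p = 0.0140 by Benjamini-Hochberg over all genes). In that comparison 20.1% of the 13825 tested genes were called higher and 20.9% lower. From 0 h to 24 h the change was -2.89 ± 0.35 (edgeR adjusted p = 5.61e-05, to 75.8 ± 40.8 CPM, n = 2), where 29.0% of genes were called higher and 30.7% lower. Between 13 h and 24 h Kit lost a further 3.28-fold (-1.71 ± 0.34, edgeR adjusted p = 0.00753), and 11.7% of genes were called higher and 12.5% lower. That last call was lost with neighbouring title numbers of the libraries as a block (-1.87, edgeR adjusted p = 0.112) and without the expression filter (0.0607). The 13 h and the 24 h comparison share the 0 h libraries.

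The difference between 0 h and G1E did not pass (-0.84 ± 0.30, edgeR adjusted p = 0.0876), in a comparison that called 7.88% of genes higher and 9.58% lower. A fit of those 2 groups alone did call it (edgeR adjusted p = 0.00728), and so did the fits without 24 h replicate 1 (0.0146) or 24 h replicate 2 (0.0147). Against G1E, Kit was lower at 13 h (-2.02 ± 0.35, edgeR adjusted p = 0.00106) and at 24 h (-3.73 ± 0.37, 1.88e-05), where 24.1% and 30.9% of genes were called higher and 24.1% and 31.9% lower. The 13 h call was lost with the title numbers as a block (0.0582). In bulk samples, fewer cells that transcribe a gene and less transcription per cell cannot be told apart.

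The 13 h call depended on 1 library. Without 13 h replicate 1, the lower of that pair, the change was -0.90 (edgeR adjusted p = 0.126). The call was also lost without the expression filter (0.0932). Titles of the libraries carry run-like numbers, whose meaning the labels do not give, and libraries with neighbouring numbers cross the groups. Over all genes, the deviations from the group means correlated at 0.459 and 0.444 in the neighbouring 0 h and 13 h libraries, and between -0.162 and 0.162 in the other neighbouring ones. In a group of 2 libraries the deviations mirror each other, so the equal values of opposite sign follow from the calculation. Within such pairs Kit was lower at 13 h by log2 values of -1.25 and -1.02, lower at 24 h by -2.54 and -3.70, and lower at 0 h than in G1E by -0.95.

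The peak at the Kit start lies at chr5:75969800-75973251 (mm9). Its sense strand carried 10383 and 1927 reads in G1E, 2904, 9136 and 7230 at 0 h, 1750 and 9174 at 13 h, and 2240 and 890 at 24 h. Scaled, that is 233 and 128 CPM, then 77.7, 284 and 137 CPM, then 50.6 and 220 CPM, then 59.9 and 27.6 CPM. The groups overlapped, except that both 24 h libraries lay below every 0 h and G1E library. The high 0 h library and the high 13 h library carry the neighbouring title numbers 1662 and 1663, and the low ones carry 1501 and 1502. No comparison over time called this strand (-0.30 ± 0.78 at 13 h with edgeR adjusted p = 0.809, and -1.92 ± 0.83 at 24 h with 0.0939). The 24 h change was called with a block for the title numbers (-1.64, edgeR adjusted p = 0.0104) and in a fit of the 2 groups alone (-1.93, 0.0421).

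The antisense strand of the start peak, where polymerase runs away from the gene, varied less. It stood at 35.7 and 25.8 CPM in G1E, 20.7, 26.7 and 25.9 CPM at 0 h, 9.91 and 14.2 CPM at 13 h, and 5.35 and 2.64 CPM at 24 h. Each time point lay below the one before it with no overlap. The log2 change was -1.02 ± 0.31 at 13 h (edgeR adjusted p = 0.0214), -2.61 ± 0.34 at 24 h (3.07e-05), and -1.59 ± 0.35 between 13 h and 24 h (0.0111). The 13 h call was lost without 0 h replicate 3 (edgeR adjusted p = 0.0591) or 13 h replicate 1 (change -0.78). It was also lost with the replicate number as a block (0.0541) and with elements scaled by the gene-body library sizes (0.13). The call between 13 h and 24 h was lost without 13 h replicate 2 (change -1.3) or 24 h replicate 2 (change -1.1). With the title numbers as a block it was lost too (edgeR adjusted p = 0.0732).

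The ratio of start reads to gene-body reads sets the signal at the start against the signal along the gene. Each side was scaled by its own library size, so the ratio is relative and no count of polymerases. The start peak also reaches into the gene, so it holds some polymerase that has already left the start. That ratio of CPM was 0.198 and 0.152 in G1E, 0.164, 0.470 and 0.225 at 0 h, 0.253 and 0.740 at 13 h, and 0.573 and 0.589 at 24 h. The 24 h libraries were above every 0 h and G1E library, and 1 of the 13 h libraries was higher still. In limma the log2 ratio changed by 0.74 ± 0.53 at 13 h (adjusted p = 0.496), 1.17 ± 0.53 at 24 h (adjusted p = 0.130) and 0.42 ± 0.58 between them (adjusted p = 0.704), so Kit was not among the 5.67%, 31.0% and 3.73% of 6494 genes called in either direction. Without 0 h replicate 2 the 24 h change was 1.60 (limma adjusted p = 0.0449). Against G1E the 24 h ratio was higher by 1.74 ± 0.58 (limma adjusted p = 0.0479), a call that was lost without either G1E library (replicate 1 at 0.0970, replicate 2 at 0.156), without 0 h replicate 3 (0.0714), and without either 24 h library (replicate 1 at 0.136, replicate 2 at 0.114).

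Inside Kit the strands parted. On the sense strand all 5 elements fell with the gene, at 13 h and again at 24 h. They lie inside the gene, so their reads can also be counted in its gene-body reads. Their fall is thus no result apart from that of the gene. On the antisense strand 3 of the 5 rose at 13 h, while the gene fell. In the plot of strands these 3 antisense series climb from 0 h to 13 h against falling sense series.

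**Figure D2:**
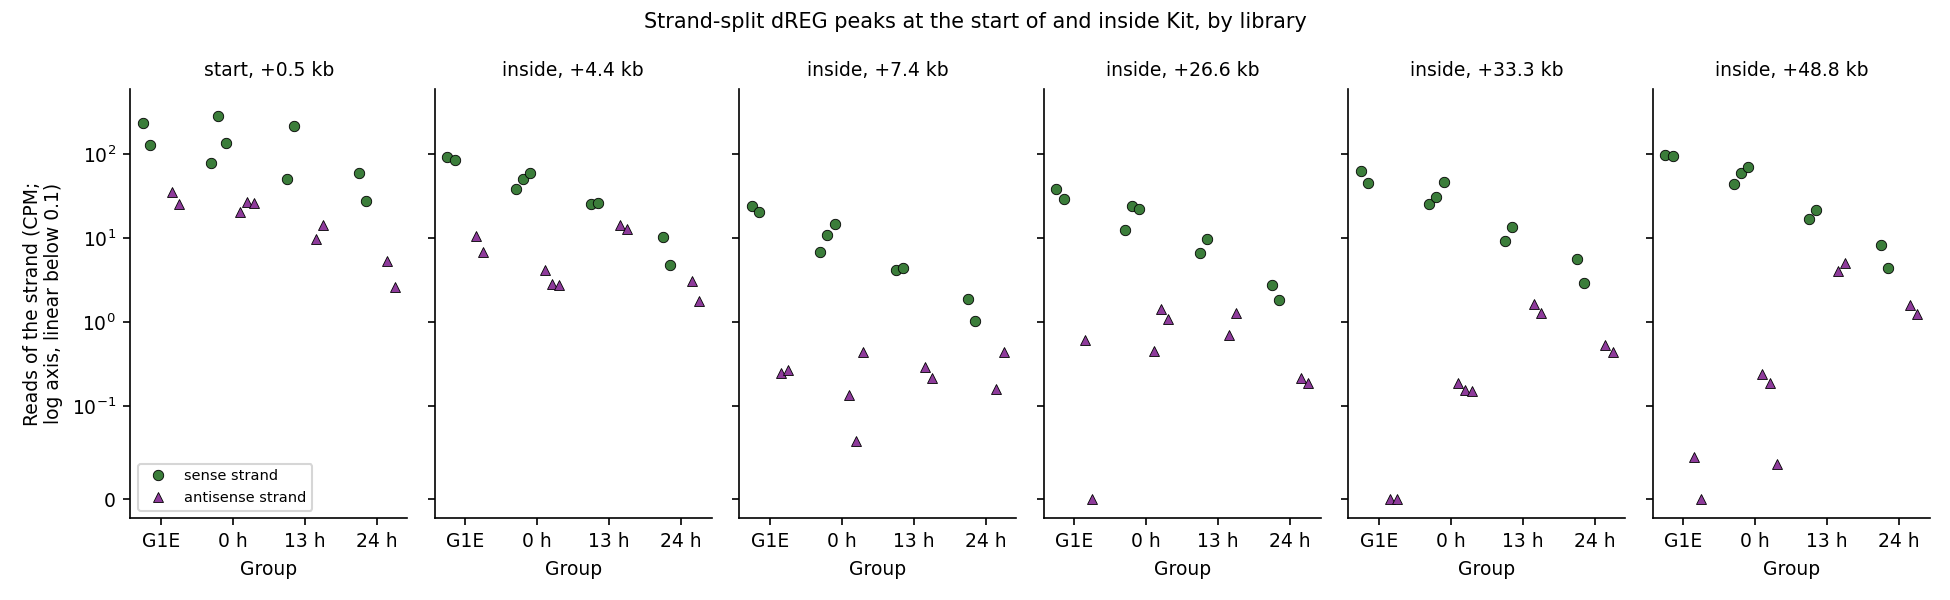
Sense (circles) and antisense (triangles) reads in CPM at the peak of the Kit start and at the 5 peaks inside Kit, one panel per peak with its distance from the start; points are libraries, and the axis is log above 0.1 and linear below. At +48.8 kb the antisense strand goes from 0.0378 to 0.241 at 0 h to 4.04 and 5.01 at 13 h, while the sense strand goes from 43.7 to 70.1 down to 16.7 and 21.8.

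The 5 inner peaks lie at +4.4, +7.4, +26.6, +33.3 and +48.8 kb, which is 5.34%, 9.01%, 32.6%, 40.8% and 59.7% of the way along the gene in the authors' table. The table gives no exon or intron for them. Sense reads inside a gene hold polymerase that came from the start as well as any that began inside, and these cannot be told apart. At +48.8 kb (chr5:76018300-76021301) sense reads were 99.2 and 95.1 CPM in G1E, 43.7, 59.3 and 70.1 CPM at 0 h, 16.7 and 21.8 CPM at 13 h, and 8.26 and 4.38 CPM at 24 h. The groups did not overlap. The change was -1.58 ± 0.28 at 13 h (edgeR adjusted p = 0.000775) and -3.19 ± 0.31 at 24 h (2.63e-06).

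Over the 5 sense elements the log2 change ran from -1.59 to -0.94 at 13 h (median -1.34) and from -3.19 to -2.71 at 24 h (median -3.00). Over all 5744 single-strand sense elements inside genes the medians were -0.14 and 0.15, and 14.6% were called lower at 13 h and 19.8% at 24 h. Between 13 h and 24 h all 5 fell again, by -1.83 to -1.41. The 24 h calls held in all 17 alternative settings for each of the 5 elements. At 13 h the call at +4.4 kb held in only 10 of 17. It was lost with a block for the replicate number (edgeR adjusted p = 0.0736) or the title numbers (0.0945). Scaling elements by the gene-body library sizes lost it too (edgeR adjusted p = 0.132). The call at +4.4 kb between 13 h and 24 h was lost with the title numbers as a block (edgeR adjusted p = 0.0566). Without 13 h replicate 1 the 13 h calls at +4.4 kb (edgeR adjusted p = 0.107), +7.4 kb (0.0602) and +26.6 kb (0.0890) were lost, and +4.4 kb was also lost without G1E replicate 2 (0.0556), 0 h replicate 3 (0.0905) or 13 h replicate 2 (0.0831). Without 24 h replicate 2 none of the 5 was called between 13 h and 24 h (edgeR adjusted p from 0.0613 to 0.239). Without 13 h replicate 2, +7.4 kb (0.0729) and +33.3 kb (0.135) were lost there, and +7.4 kb also without 13 h replicate 1 (0.0508).

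The antisense element at +4.4 kb (chr5:75974250-75976501) held the most antisense reads inside the gene. It had 475 and 102 reads in G1E, 156, 91 and 148 at 0 h, 502 and 543 at 13 h, and 117 and 58 at 24 h. Scaled levels were 10.7 and 6.76 CPM, then 4.17, 2.83 and 2.80 CPM, then 14.5 and 13.0 CPM, then 3.13 and 1.80 CPM. Both 13 h libraries were above all others, and the 24 h libraries overlapped the 0 h ones. It rose by 2.07 ± 0.33 at 13 h (edgeR adjusted p = 0.000361) and fell by 2.48 ± 0.39 between 13 h and 24 h (0.00241). Both calls held in all 17 alternative settings. The 24 h level against 0 h was -0.40 ± 0.35 (edgeR adjusted p = 0.352). From G1E to 0 h it fell by 1.42 ± 0.33 (edgeR adjusted p = 0.00776), a call that was lost without G1E replicate 1 (0.165).

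At +48.8 kb the antisense strand was close to silent before estradiol. It had 2 and 0 reads in G1E, 9, 6 and 2 at 0 h, 140 and 209 at 13 h, and 59 and 40 at 24 h. All libraries from 13 h on were above all earlier ones. It rose 30.2-fold at 13 h (4.92 ± 0.60, edgeR adjusted p = 4.06e-05) and was still higher at 24 h than at 0 h (3.24 ± 0.60, 0.000507). Both calls held in all 17 alternative settings. Its decline between 13 h and 24 h did not pass (-1.68 ± 0.57, edgeR adjusted p = 0.0670), though it did in a fit of those 2 groups alone (0.0269) and without 0 h replicate 1 (0.0382) or 0 h replicate 3 (0.0320).

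At +33.3 kb (chr5:76003500-76005151) the antisense strand had no reads in G1E, 7, 5 and 8 at 0 h, 57 and 53 at 13 h, and 20 and 14 at 24 h. The groups did not overlap, and 13 h was highest. It rose by 3.12 ± 0.57 at 13 h (edgeR adjusted p = 0.00112), a call held in all 17 alternative settings. The higher level at 24 h than at 0 h (1.54 ± 0.59, edgeR adjusted p = 0.0419) was called in 4 of 17 alternatives and was lost without any 1 of the 0 h, 13 h or 24 h libraries (0.0545 to 0.164). Against 0 reads in G1E, the 20 reads at 0 h are at least 3.25-fold higher, counting 3 reads over the G1E group, and the test called it (edgeR adjusted p = 0.0131). That call was lost without G1E replicate 1 (0.193).

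The other antisense elements inside Kit did not follow. At +7.4 kb there were 11 and 4 reads in G1E, 5, 2 and 23 at 0 h, 10 and 9 at 13 h, and 6 and 14 at 24 h, and no comparison over time called a change. At +26.6 kb there were 27 and 0 reads in G1E, 17, 46 and 57 at 0 h, 24 and 54 at 13 h, and 8 and 6 at 24 h. Here the 0 h and 13 h libraries overlapped and the 24 h libraries were lowest apart from 1 G1E library. It fell by 2.28 ± 0.87 at 24 h (edgeR adjusted p = 0.0409), and this was lost without 0 h replicate 2 (0.0987) or replicate 3 (0.0657) and without either 24 h library (0.136 and 0.189).

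So at 13 h 3 of 5 antisense elements inside Kit were higher and 0 lower, with a median change of 2.07. Of all 4198 antisense elements inside genes 20.7% were called higher and 17.0% lower in that comparison, with a median of -0.21. At 24 h 2 were higher and 1 lower than at 0 h (median 0.41), against 17.3% and 32.2% of all antisense elements (median -0.66). Between the times 0 were higher and 1 lower, against 0.977% and 9.39%. For the antisense elements lower at 13 h and higher between the times, both 0 in edgeR, the count was also 0 in DESeq2 and 0 at an unadjusted p under 0.05.

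The ratio of plus to minus reads puts both strands of a peak of 1 library in 1 measure. Where a strand has no reads, the reads added before taking logs and the depth set its size. At +4.4 kb the antisense strand made up 10.3% and 7.33% of the peak's reads in G1E, 9.87%, 5.32% and 4.41% at 0 h, 36.5% and 33.0% at 13 h, and 23.1% and 27.5% at 24 h. At +48.8 kb it made up 0.0452% and 0% in G1E, 0.548%, 0.313% and 0.0539% at 0 h, 19.5% and 18.7% at 13 h, and 16.0% and 22.1% at 24 h. At both peaks the 13 h and 24 h libraries stood above all others. Such a share rises when sense reads fall as well as when antisense reads rise. In the G1E library with no antisense read there, counting error with 3 reads as the limit allows a share of up to 0.209%.

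On the log2 scale of sense over antisense, with 0.5 reads added, the ratio at 13 h changed by -3.01 ± 0.46 at +4.4 kb (limma adjusted p = 0.0103), -4.62 ± 0.77 at +33.3 kb (adjusted p = 0.0135) and -6.64 ± 0.91 at +48.8 kb (adjusted p = 0.00833). The change was called in 10.7% of 14330 peaks, in either direction. At 24 h the same 3 peaks and the one at +7.4 kb were called, by -2.36 ± 0.46, -4.53 ± 0.77, -6.63 ± 0.91 and -3.58 ± 0.85, where 29.6% of all peaks were. At +4.4 kb and +7.4 kb the antisense strand itself was not called higher at 24 h than at 0 h. The sense strand of both was called lower. From 13 h to 24 h limma called 0 of the peaks at and inside Kit and 0% of all peaks, and 0 of those at Kit had an unadjusted p under 0.05. From G1E to 0 h +33.3 kb was called among them (limma adjusted p = 0.0466, against 2.60% of all peaks). Both G1E libraries have no antisense read there, so the size of that change depends on the reads added and is not given. The call was lost in each of the 11 alternatives, among them 5 reads added (0.302) and the fits without each library in turn (0.0695 to 0.181).

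With 1 library at 13 h these calls did not hold. Without 13 h replicate 1 the 13 h values were -2.90, -4.14 and -6.60 (limma adjusted p = 0.0807, 0.103 and 0.0666), and without 13 h replicate 2 they were -3.12, -5.09 and -6.68 (0.0620, 0.0620 and 0.0557). Without 24 h replicate 2 the 24 h call was kept at +48.8 kb and lost at +4.4 kb (0.0733), +7.4 kb (0.139) and +33.3 kb (0.0531).

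Set against the gene, antisense reads of the 5 inner peaks were 0.440% and 0.304% of the Kit gene-body reads in G1E and 0.516%, 0.321% and 0.269% at 0 h. They were 4.98% and 3.41% at 13 h and 2.69% and 3.49% at 24 h. The summed antisense level was 4.50 to 5.19 CPM at 0 h, 20.8 and 21.2 CPM at 13 h, and 4.10 and 5.61 CPM at 24 h. Of the 24 h libraries, 1 lay below the 0 h range and 1 above it, while the gene-body reads had dropped. The element at +4.4 kb was the largest part of this sum in every library. The sum hides elements that went opposite ways, as 2 of the 5 were called higher at 24 h than at 0 h and 1 lower. Whether the gene-body counts take 1 strand is not stated, and if they take both, antisense reads are part of them.

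**Figure D3:**
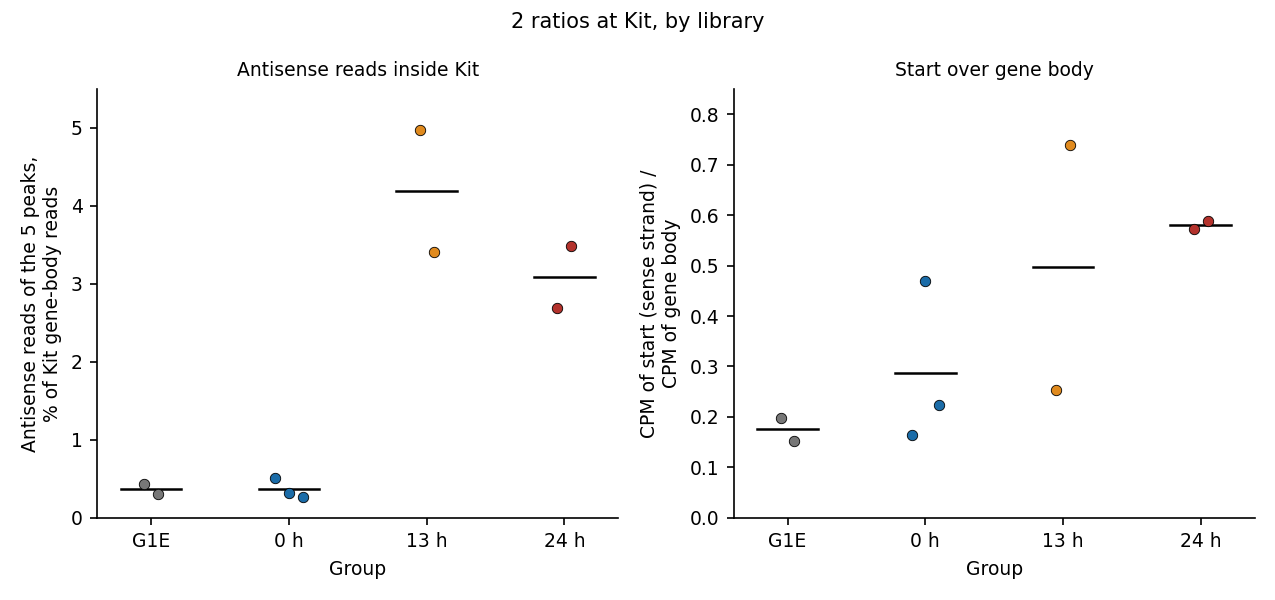
Left, antisense reads of the 5 peaks inside Kit as a percent of Kit gene-body reads; right, CPM of the sense strand at the start over CPM of the gene body; both axes linear from 0, points are libraries and bars are group means. On the left the 13 h and 24 h libraries lie between 2.69% and 4.98% and all others at or below 0.516%; on the right 0 h and 13 h spread widely.

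Counted over all Kit-linked elements, 37 of the 47 entries passed the filter on low counts. The 10 that did not had 2 to 73 reads over all libraries. At 13 h, of the 37 tested, 15 were lower and 5 higher than at 0 h, against 18.6% and 15.2% of 35158 elements, and the median change was -1.05 against -0.13. At 24 h 24 were lower and 2 higher (29.5% and 22.7% of all elements), with a median of -2.82 against -0.18. Between the times 13 were lower and 0 higher (7.82% and 5.28%), the 0 also at an unadjusted p under 0.05 in edgeR and in DESeq2. At 0 h against G1E 17 were lower and 1 higher (12.1% and 7.18%), with a median of -1.33 against 0.01. The lower ones include sense elements inside Kit, whose reads can also be gene-body reads. These were 5 at 13 h, 5 at 24 h, 5 between the times and 2 at 0 h against G1E. The 2 higher at 24 h became 1 without any one of the 0 h, 13 h or 24 h libraries. Without 13 h replicate 1 the 15 became 8, without 24 h replicate 2 the 13 became 2, and without G1E replicate 1 the 17 became 3.

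**Figure D4:**
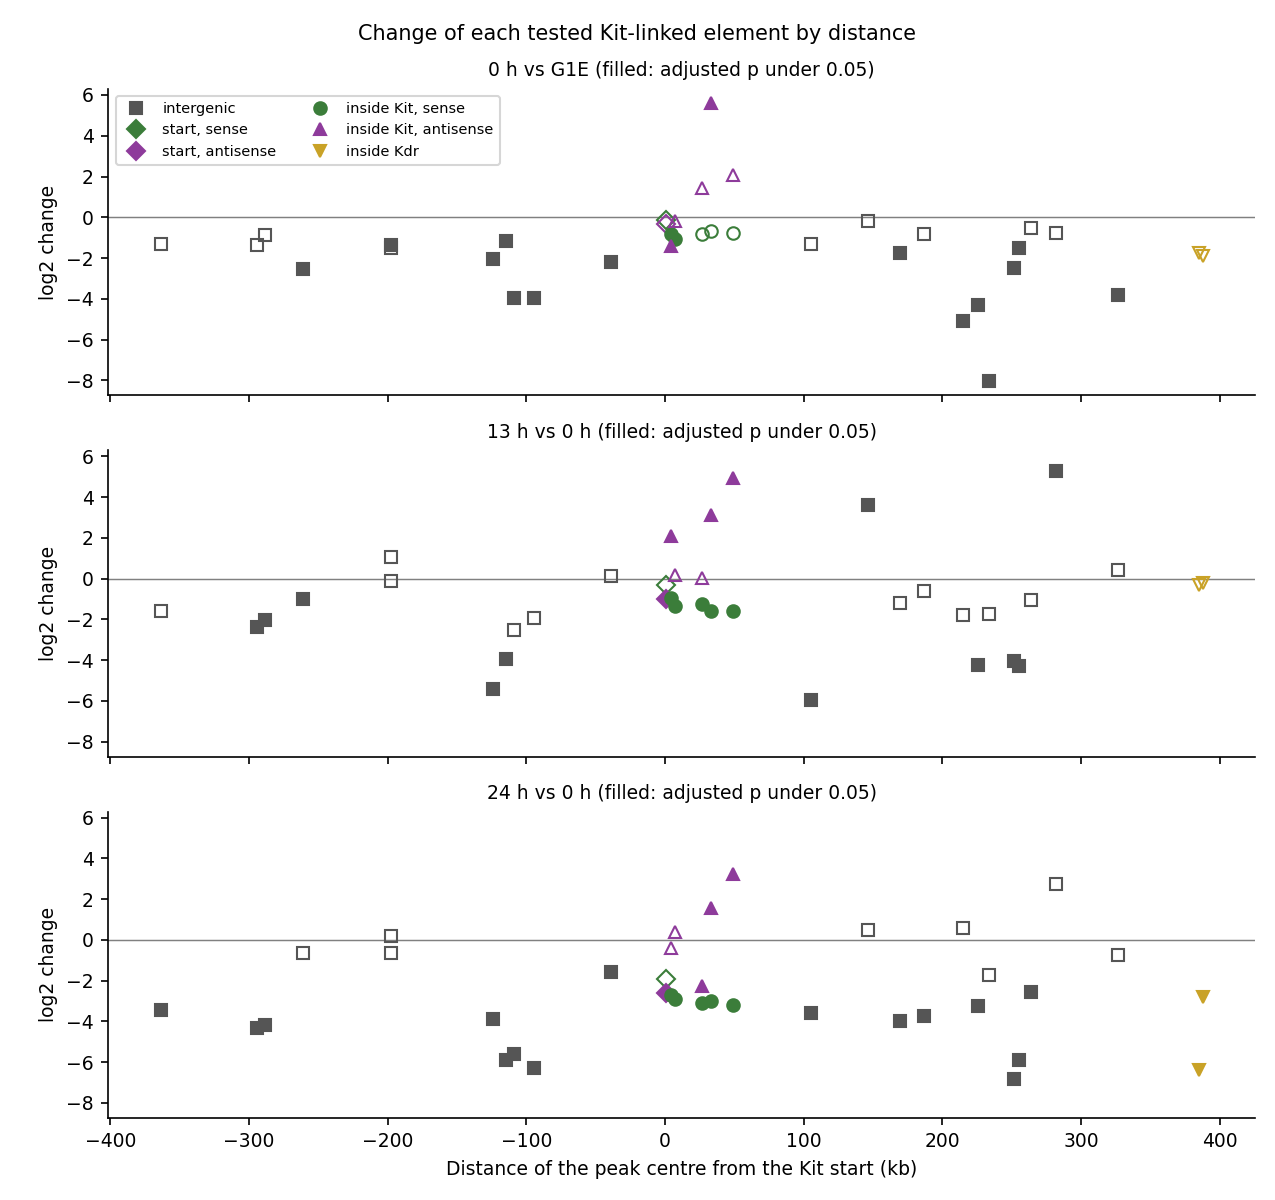
Log2 change of each tested Kit-linked element against its distance from the Kit start in kb, for 0 h against G1E, 13 h against 0 h and 24 h against 0 h; filled symbols have an edgeR adjusted p under 0.05, and colours and shapes give the class. Values of elements with 0 reads in a group depend on the prior count and are no measure of size. At 24 h 19 of the 23 intergenic elements lie below 0, and the filled symbols above 0 are antisense elements inside Kit.

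The longest peak, upstream at -114.8 kb (chr5:75853900-75858601), fell with the gene. It stood at 33.4 and 20.4 CPM in G1E and 12.4, 10.8 and 12.9 CPM at 0 h. At 13 h it had 0.664 and 0.887 CPM and at 24 h 0.267 and 0.124 CPM, which are 10 and 4 reads. The groups did not overlap. The change at 13 h was -3.95 ± 0.37 (edgeR adjusted p = 5.42e-06) and at 24 h -5.89 ± 0.44 (3.42e-07). Both calls held in all 17 alternative settings. Its lower level at 0 h than in G1E (-1.16 ± 0.29, edgeR adjusted p = 0.0119) was lost without G1E replicate 1 (0.261).

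Its neighbours also fell by 24 h, with fewer reads. At 13 h the change was not called at -108.6 kb (-2.5, edgeR adjusted p = 0.0738) or -94.3 kb (-1.92, 0.163). At -123.7 kb there were 133 and 41 reads in G1E, 27, 18 and 41 at 0 h, 0 and 1 at 13 h, and 2 and 1 at 24 h. With 1 read at 13 h the ratio of 0 h to 13 h was 53.6, with a 95% counting interval from 9.37 to 2141 (edgeR adjusted p = 0.000321). At -108.6 kb 167 and 20 reads in G1E became 7, 2 and 12 at 0 h, 1 and 1 at 13 h and 0 at 24 h, at least 3.98-fold lower at 24 h than at 0 h (edgeR adjusted p = 0.00864). At -94.3 kb 230 and 46 reads became 10, 2 and 23, then 5 and 0, then 0, at least 6.63-fold lower (edgeR adjusted p = 0.0106). Both bounds set 3 reads over the 24 h group. The call at -94.3 kb was lost without 24 h replicate 1 (0.0586) or 24 h replicate 2 (0.0571).

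Further upstream the elements at -293.9 and -288.6 kb also fell, with -2.36 ± 0.59 and -2.03 ± 0.47 at 13 h (edgeR adjusted p = 0.00828 and 0.00429) and -4.32 ± 0.69 and -4.18 ± 0.57 at 24 h (0.000244 and 4.71e-05). The 13 h call was lost at -293.9 kb without 13 h replicate 2 (0.0571) and at -288.6 kb without 13 h replicate 1 (0.0513). Of the 11 upstream elements tested, 5 were lower and 0 higher at 13 h (median -1.92), and 8 lower and 0 higher at 24 h (median -3.90). Of all 10044 intergenic elements tested, 23.9% were lower and 12.9% higher at 13 h (median -0.49), and 40.3% were lower and 13.6% higher at 24 h (median -1.06). Upstream elements with an unadjusted p under 0.05 numbered 1 higher at 13 h and 0 at 24 h, and DESeq2 called 1 and 0 higher. Of the 12 downstream elements tested, 4 were lower and 2 higher at 13 h, and 7 lower and 0 higher at 24 h, where 1 was higher at an unadjusted p under 0.05 and 0 in DESeq2.

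The element at -260.7 kb differed in its course. It had 38.5 and 21.8 CPM in G1E, 5.43, 3.79 and 6.54 CPM at 0 h, 2.66 and 2.52 CPM at 13 h, and 3.50 and 3.17 CPM at 24 h. It was lower at 0 h than in G1E (-2.52 ± 0.31, edgeR adjusted p = 6.56e-05) and at 13 h than at 0 h (-1.03 ± 0.33, 0.0280, lost without 0 h replicate 3 at 0.0887 or either 13 h library at 0.102 and 0.126). Its 24 h level was not called against 0 h (-0.66 ± 0.33, edgeR adjusted p = 0.104), except with the title numbers as a block (0.0236) or upper-quartile factors (0.0364). The plus strand at -197.4 kb had 1.23, 0.901 and 1.08 CPM at 0 h, 2.37 and 2.13 CPM at 13 h and 1.34 and 1.15 CPM at 24 h, and no change over time was called, although the 13 h rise was in DESeq2 (1.10, adjusted p = 0.0350) and without G1E replicate 2 (0.0378) or 24 h replicate 2 (0.0414). On the minus strand there no comparison over time called a change.

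The other upstream elements had fewer reads. At -38.9 kb there were 209 and 50 reads in G1E, 57, 23 and 23 at 0 h, 37 and 37 at 13 h, and 7 and 13 at 24 h. It was lower at 0 h than in G1E (-2.18 ± 0.52, edgeR adjusted p = 0.00884), though not without G1E replicate 1 (0.126). The lower level at 24 h than at 0 h (-1.59 ± 0.61, edgeR adjusted p = 0.0427) was lost without either G1E library (0.0589 and 0.0696), without 0 h replicate 1 (0.177) without either 24 h library (0.253 and 0.0647) and with the title numbers as a block, where the change was -0.57. The minus strand at -363.8 kb had 36 and 38 reads in G1E, 25, 7 and 56 at 0 h, 13 and 3 at 13 h, and 3 and 1 at 24 h, lower at 24 h than at 0 h (-3.46 ± 1.03, edgeR adjusted p = 0.0119) but not without 24 h replicate 2 (0.101). Both strands at -317.7 and -204 kb, the plus strand at -363.8 kb and the element at -35.9 kb were among those not tested.

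**Figure D5:**
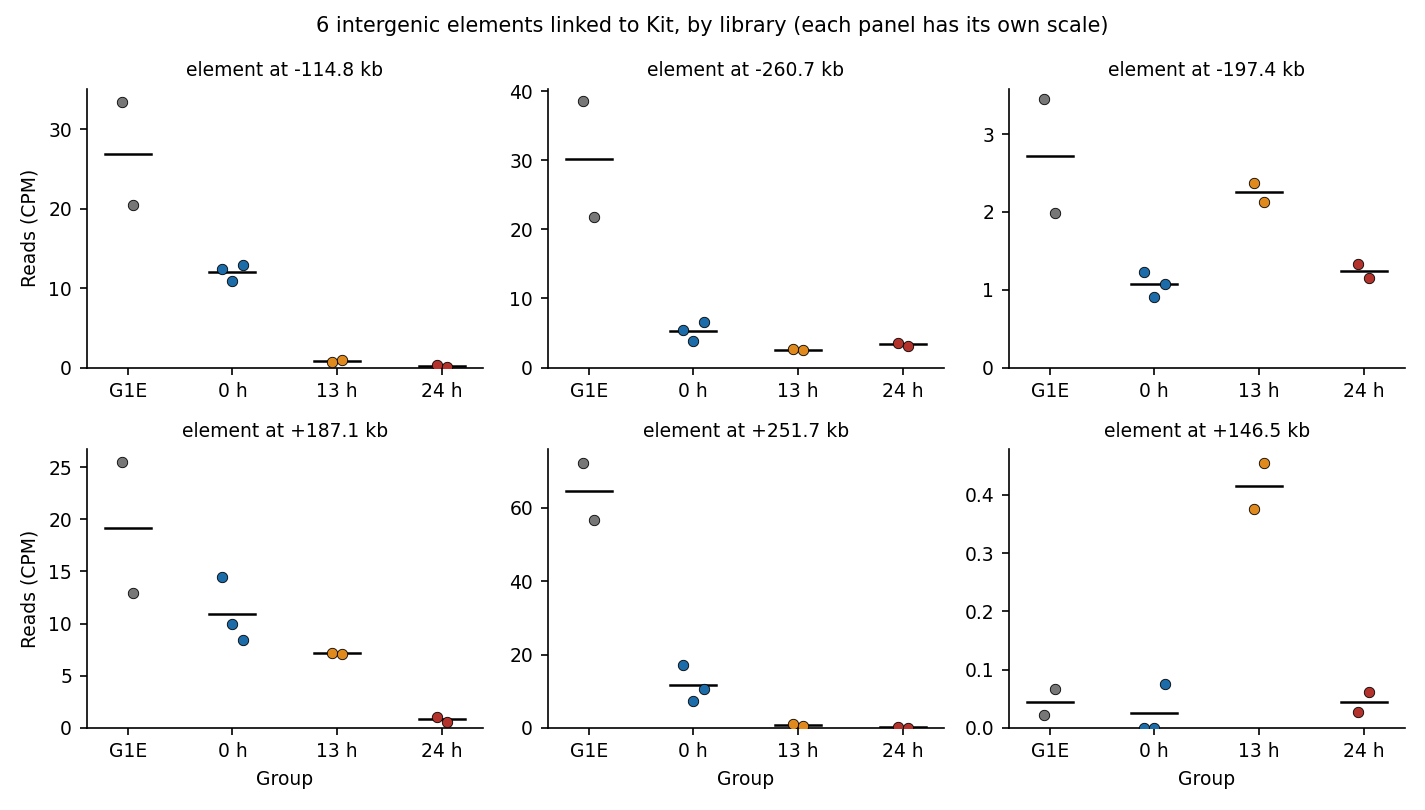
Reads in CPM of 6 intergenic elements linked to Kit for each library, one panel per element with its distance from the Kit start, each on its own linear scale from 0; points are libraries and bars group means. The elements at -114.8 and +251.7 kb are near 0 at 13 h, the one at +187.1 kb keeps 7.12 and 7.14 until 13 h, and the one at +146.5 kb is highest at 13 h.

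Downstream, the strongest intergenic element was at +251.7 kb (chr5:76220500-76224851). It stood at 72.4 and 56.7 CPM in G1E, 17.2, 7.33 and 10.5 CPM at 0 h, 0.982 and 0.456 CPM at 13 h, and 0.160 and 0.0310 CPM at 24 h, the last 2 from 6 reads and 1 read. The groups did not overlap. The log2 change was -2.47 ± 0.37 from G1E to 0 h (edgeR adjusted p = 0.000399), -4.04 ± 0.48 at 13 h (4.02e-05) and -6.82 ± 0.61 at 24 h (1.98e-06), each call held in all 17 alternative settings. The element beside it at +255.6 kb fell too, with -4.27 ± 0.57 at 13 h (edgeR adjusted p = 8.34e-05) and -5.89 ± 0.67 at 24 h (9.78e-06).

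The element at +187.1 kb was not called at 13 h. It had 25.4 and 12.9 CPM in G1E, 14.4, 9.94 and 8.39 CPM at 0 h, 7.14 and 7.12 CPM at 13 h and 1.07 and 0.559 CPM at 24 h. Both 13 h libraries lay just below the 0 h range, and the change did not pass (-0.62 ± 0.36, edgeR adjusted p = 0.203). From 13 h to 24 h it fell by 3.11 ± 0.44 (edgeR adjusted p = 0.00163). The one at +169.7 kb had a 13 h change about as large as that of Kit, -1.19 ± 0.54 (edgeR adjusted p = 0.105), which was called with the title numbers as a block (0.0402). Its levels were 2.68, 0.932 and 1.36 CPM at 0 h, 0.982 and 0.480 CPM at 13 h, and 0.0802 and 0.124 CPM at 24 h, so 0 h and 13 h overlapped. It changed by -2.80 ± 0.74 between 13 h and 24 h (edgeR adjusted p = 0.0258), which was lost without 13 h replicate 1 (0.124), 24 h replicate 1 (0.120) or 24 h replicate 2 (0.124) and with that block (0.0958).

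Some downstream elements held most of their reads in G1E. At +233.7 kb there were 183 and 28 reads in G1E and 1 read over the 3 libraries at 0 h, a ratio of 433 with a 95% counting interval from 76.9 to 17180 (edgeR adjusted p = 6.35e-05). At +225.5 kb 390 and 49 reads in G1E became 26, 5 and 5 at 0 h (-4.28, edgeR adjusted p = 0.00153, lost without G1E replicate 1 at 0.0606) and 1 and 0 at 13 h. At +327 kb 88 and 13 reads in G1E became 6, 2 and 4 at 0 h (-3.83 ± 0.71, edgeR adjusted p = 0.00167), a call lost without G1E replicate 1 (0.0914). On the minus strand at +215.2 kb 18 and 6 reads became 1, a ratio of 49.2 with a counting interval from 8.03 to 2025 (edgeR adjusted p = 0.00657), which DESeq2 did not call (0.0515). Of the 23 intergenic elements tested, 14 were lower and 0 higher at 0 h than in G1E, with a median of -1.52. Of all intergenic elements 21.5% were lower and 7.80% higher, with a median of -0.32. DESeq2 called 0 of the 23 higher as well, and 0 were at an unadjusted p under 0.05.

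Further downstream elements had few reads. The plus strand at +105.1 kb had 28 and 6 reads in G1E, 13, 4 and 8 at 0 h, 0 at 13 h, and 1 and 0 at 24 h. It was at least 5.19-fold lower at 13 h than at 0 h, with 3 reads over the 13 h group (edgeR adjusted p = 0.0100), a call lost without 13 h replicate 1 (0.0664) or 13 h replicate 2 (0.0782). The strand ratio of that peak was called at 13 h too, but its size there depends on the reads added. The plus strand at +263.7 kb had 16, 24 and 32 reads at 0 h, 8 and 14 at 13 h and 5 and 2 at 24 h, lower at 24 h (-2.53 ± 0.69, edgeR adjusted p = 0.00744) but not without 24 h replicate 2 (0.0947). The minus strands at +105.1, +263.7 and +282.2 kb and the plus strand at +215.2 kb were not tested.

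Of the intergenic elements tested, 2 rose at 13 h, both from few reads. At +282.2 kb the plus strand had 1 and 0 reads in G1E, 0, 0 and 1 at 0 h, 16 and 17 at 13 h, and 3 and 2 at 24 h, a ratio of 53.0 with a counting interval from 8.86 to 2154 (edgeR adjusted p = 0.00128). At +146.5 kb there were 1 and 1 reads in G1E, 0, 0 and 4 at 0 h, 13 and 19 at 13 h, and 1 and 2 at 24 h (3.62 on the log2 scale, edgeR adjusted p = 0.0109). The second call was lost without 13 h replicate 2 (0.0748) and in DESeq2 (0.0512). Neither was called higher at 24 h than at 0 h.

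The 2 elements inside Kdr, the receptor gene of vascular endothelial growth factor, were called lower at 24 h than at 0 h and were not called at 13 h. At +387.8 kb the reads were 548 and 222 in G1E, 305, 46 and 74 at 0 h, 146 and 85 at 13 h, and 22 and 14 at 24 h (-2.82, edgeR adjusted p = 0.0136 at 24 h against 0 h). That call was lost without 24 h replicate 1 (0.101) or 24 h replicate 2 (0.150), and without 0 h replicate 1 the 13 h change turned to 1.13 (0.0403). At +385.1 kb they went from 15, 7 and 12 at 0 h and 8 and 9 at 13 h to 0 at 24 h, at least 6.44-fold lower (edgeR adjusted p = 0.00170). The Kdr gene body itself was at 1.83 ± 1.74 CPM at 0 h (n = 3), 1.77 ± 1.07 CPM at 13 h (n = 2) and 0.311 ± 0.0901 CPM at 24 h (n = 2), called lower at 24 h (edgeR adjusted p = 0.0175) but not without 24 h replicate 1 (0.0568) or 24 h replicate 2 (0.110).

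The genes around Kit were counted too. Of 13 genes of its stretch of chromosome 5, 10 passed the filter, with 2 higher and 0 lower at 13 h and 5 higher and 1 lower at 24 h. The 1 lower gene was Kdr. The 2 of 10 higher at 13 h match the 20.1% of all genes called higher, and 29.0% were at 24 h. The 0 lower at 13 h stands beside 20.9% of all genes, and the 1 lower at 24 h beside 30.7%. With library totals the 24 h count was 3 higher and 3 lower, and without 13 h replicate 1 the 13 h count was 1 higher. Chic2 rose from 87.4 ± 11.5 CPM at 0 h (n = 3) to 172 ± 33.8 CPM at 13 h (n = 2, 0.98 ± 0.15, edgeR adjusted p = 0.000657) and to 242 ± 1.90 CPM at 24 h (1.47 ± 0.15, 2.02e-05). Clock, a circadian transcription factor, went from 91.6 ± 8.09 to 237 ± 10.8 CPM at 24 h (1.37 ± 0.16, edgeR adjusted p = 4.38e-05). Pdgfra, the sister receptor gene, stood at 0.0713 CPM or less on average in every group and was not tested.

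Transcription factors and cofactors of progenitors and red cells were counted in the same way. Of 23 tested, 12 were lower and 3 higher at 13 h (median -0.53 against -0.02 for all genes), and 14 were lower and 5 higher at 24 h (median -0.59 against -0.07). Of all genes 20.9% were lower and 20.1% higher at 13 h, and 30.7% and 29.0% at 24 h. Gata2, the activator that GATA1 displaces, went from 154 ± 27.9 CPM at 0 h (n = 3) to 28.7 ± 11.2 CPM at 13 h (n = 2). Lyl1, a bHLH partner of GATA2, went from 100.0 ± 5.78 to 4.07 ± 0.598 CPM (-4.62 ± 0.21, edgeR adjusted p = 9.08e-07). Zfpm1, the GATA1 cofactor FOG1, rose from 299 ± 64.4 to 2268 ± 102 CPM (2.92 ± 0.35, edgeR adjusted p = 0.000172), and Lmo2, a bridge of the GATA1 complex, from 223 ± 15.4 to 527 ± 40.9 CPM (1.24 ± 0.23, 0.00214). The 13 h calls of these 4 genes held in all alternatives run for them. Of the counts, 12 lower at 13 h became 6 without 13 h replicate 1, and at 24 h 14 lower became 8 without 24 h replicate 2 and 5 higher became 2 without 24 h replicate 1.

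Genes of the receptor's signal chain changed in both directions. Of 49 tested, 12 were higher and 13 lower at 13 h (median 0.01), and 23 were higher and 14 lower at 24 h (median 0.10), or 13 higher and 17 lower with library totals. The shares of all genes were 20.1% higher and 20.9% lower at 13 h and 29.0% and 30.7% at 24 h. Without 24 h replicate 2 the 14 lower became 9. Some adaptors of the receptor were lower. Gab2, which links it to the PI3 kinase, went from 742 ± 24.5 CPM at 0 h (n = 3) to 161 ± 14.4 CPM at 13 h (n = 2, -2.20 ± 0.13, edgeR adjusted p = 4.06e-06), and Grb2, which links it to Ras, from 437 ± 44.4 to 154 ± 39.0 CPM (-1.50 ± 0.23, 0.000659). The kinase Fyn went from 179 ± 12.7 to 70.4 ± 9.63 CPM (-1.34 ± 0.15, edgeR adjusted p = 1.00e-04). Stat5b, a transcription factor that the erythropoietin receptor uses as well, rose from 191 ± 10.7 to 482 ± 55.0 CPM (1.34 ± 0.13, edgeR adjusted p = 5.65e-05) and reached 672 ± 34.6 CPM at 24 h.

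Of 18 tested genes that dampen the signal, 0 were higher and 4 lower at 13 h, and 3 were higher and 10 lower at 24 h, with medians of -0.35 and -0.78. The 4 of 18 at 13 h are near the 20.9% of all genes called lower, and at 24 h 30.7% of all genes were. Spry4, an inhibitor of the Ras pathway that the pathway induces, went from 27.8 ± 2.30 CPM at 0 h (n = 3) to 14.8 ± 5.14 CPM at 13 h and 0.484 ± 0.0541 CPM at 24 h (-5.84 ± 0.33, edgeR adjusted p = 7.59e-07). Ptpn6, the phosphatase SHP-1 that acts on the receptor, went from 45.6 ± 2.04 to 10.9 ± 1.04 CPM at 24 h (-2.06 ± 0.17, edgeR adjusted p = 5.55e-06). The Spry4 call at 13 h was lost without 13 h replicate 2 (0.0998), which left 1 of the 4 lower, and without 24 h replicate 2 the 3 higher became 1. Of 7 tested genes for related receptors and their ligands, 2 were higher and 1 lower at 13 h and 0 were higher and 2 lower at 24 h, where 20.1% and 20.9% of all genes were at 13 h and 29.0% and 30.7% at 24 h.

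The pattern of Kit over the 9 libraries was shared by many genes. Of 10574 genes with enough reads, 378 had a Pearson correlation above 0.95 with Kit on log2 CPM, with 0.5 CPM added. These points share libraries and depth, so the numbers are descriptions. Most alike was Dnmt3b, a DNA methyltransferase (r = 0.995), with 52.8 ± 6.78 CPM in G1E (n = 2), 37.3 ± 2.67 CPM at 0 h (n = 3), 15.7 ± 2.17 CPM at 13 h (n = 2) and 5.84 ± 3.17 CPM at 24 h (n = 2). Next came Zfp109, Ndc1, Hes1, Nxpe3, Sptbn1, Slc7a1, Ctps, Trmt2a and Rpl3, with r from 0.992 down to 0.986. By rank correlation Dnmt3b was first as well, with a rho of 1.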

How the data were processed

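PRO-seq libraries of 9 samples in 4 groups were analysed. The authors deposited raw counts of reads per gene body and raw counts of reads per dREG peak or peak strand, in tables of the whole series, with the position inside a gene as a percent, per the file headers. Reads were aligned with BWA to mm9, per the submitters' processing notes. For the aligner version, counter, annotation and gene-body strand, the sources used here give nothing.

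Counts were scaled by TMM and filtered with filterByExpr, separately for genes and elements. All groups entered 1 fit of edgeR 4.0.16 (R 4.3.3, robust quasi-likelihood, 5 residual degrees of freedom). Benjamini-Hochberg adjustment ran over all features tested, with 0.05 as the threshold, and the SE is the log2 change over the root of F. Strand ratios and start over gene-body ratios, with 0.5 reads added, were fitted with limma 3.58.1. The fits were tested on simulated data with the same spread for every gene, for 13 h against 0 h only. Such data do not cover elements with few reads or unevenly spread replicates. DESeq2 1.42.0, other scalings, filters, blocks and the fit without each library were alternatives. Depth was 37830789 to 139945759 gene-body reads per library, and counting intervals and limits cover counting error only.

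Kit, its elements and the gene lists were chosen with earlier results of these data known. The rule for Kit's own elements was to describe each, those not tested by their count or position. Up to 6 genes per list and comparison could be named, by largest change among the called ones whose mean count reached 50. The 10 genes most like Kit were taken by Pearson correlation.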

Additional observations from a re-analysis of the deposited data

How the results depend on the processing

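The fall of Kit gene-body reads at 24 h against 0 h was called in all 16 alternatives. At 13 h it was not called without the filter (-1.20), with the replicate number as a block (-1.11, edgeR adjusted p = 0.0538) or in 1 fit without a library, whose values ran from -1.49 to -0.90. Between 13 h and 24 h it was not called without the filter (-1.68) or with the title numbers as a block (-1.87), and 13 h against G1E was not called with that block (-2.08). At 0 h against G1E it was called with only the 2 groups (-0.85) and in some fits without a library (-1.06 to -0.57). Same-numbered libraries of different groups correlated between -0.150 and 0.459 in their deviations, and the replicate numbers were not taken to pair the samples. Libraries with neighbouring title numbers correlated at 0.459 and 0.444 between 0 h and 13 h and from -0.162 to 0.162 among the others, and what these numbers mark is not known. Because deviations mirror each other in a group of 2 libraries, such correlations are partly fixed beforehand and cannot settle a pairing.

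Without 1 library, the lower Kit elements numbered 8 to 16 at 13 h, 2 to 18 between 13 h and 24 h and 3 to 21 at 0 h against G1E. Higher elements at 24 h numbered 1 to 2, and 1 with library totals, upper-quartile factors, DESeq2, only the 2 groups, the replicate block or the title-number block. With the title-number block 7 were lower between 13 h and 24 h. At 0 h against G1E 0 were higher with only the 2 groups or the title-number block. Peaks with a changed strand ratio numbered 0 to 3 at 13 h, 1 to 4 at 24 h and 0 to 1 at 0 h against G1E without 1 library, and 0 in the last with the replicate block. The start over gene-body ratio changed by 0.83 to 1.60 at 24 h against 0 h and by 1.67 to 1.93 against G1E. The element at +387.8 kb turned to 1.13 at 13 h without 0 h replicate 1, in a range from -0.83 to 1.13 without 1 library. Of 2474 element values under alternatives, 139 lost a call, 55 gained one and 1 reversed with a call, and the cause was not tested. A further 57, not called in either fit, turned sign. In fits that leave 1 library in a group, that library is assumed to vary like the others. Elements with few reads are limited by depth.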

Other observations

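Genes that carry tested antisense elements can be set beside Kit by counts. Of 558 genes with such an element whose gene body was lower at 13 h than at 0 h, 94 (16.8%) had at least 1 antisense element called higher. Among 745 genes with a higher gene body the number was 297 (39.9%), and among 1290 genes not called it was 293 (22.7%). Of the 558, Fam53b, Kit and Vav1 had 3 or more antisense elements higher, and genes with more elements had more chances to do so. So did 15 of the 745 genes with a higher gene body and 17 of the 1290 not called. At 24 h 94 of 692 lower genes (13.6%) had a higher antisense element, against 318 of 1037 higher genes (30.7%) and 187 of 864 not called (21.6%). A lower antisense element was found in 43.5% of the lower genes, 37.5% of the higher ones and 37.6% of those not called.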
